A study of Mus musculus with 8 samples.

Results

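The genes described here are a list of 35 oligodendrocyte lineage genes, running from the precursor cell to the myelinating cell, measured in red fluorescent cells sorted from the tuberal hypothalamus of 8 mice. The list is one of symbols, with no threshold on a measured value, and it was drawn up with earlier results of these data known. Of the 35 symbols, 34 were found among the 35968 genes with a transcript in the files, and Qdpr-as matched no gene of the annotation. RNA sequencing of total RNA was made for 4 female and 4 male mice, 1 library per mouse, so that a mouse is the replicate and sex the only difference between the groups in the labels. All mice carried Ssttm2.1(cre)Zjh/J / +, a Cre recombinase read from the somatostatin (Sst) gene, on a C57BL/6J background, and all had received AAV2-flex-tdTomato, a virus that makes a red protein where Cre is present. The cells were labelled as neurons by the submitters, no sample of unsorted tissue or of an unsorted glial fraction was analysed here, and of the age the methods say only that the mice were adult.

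Oligodendrocytes wrap axons in myelin, a stack of membrane rich in lipid and held together by a small set of proteins such as Mbp and Mobp. They arise from precursor cells that carry the receptor Pdgfra and the proteoglycan Cspg4 (NG2), pass through a committed stage marked by Gpr17 and Enpp6, and then switch on the myelin genes under the transcription factors Sox10, Olig2 and Myrf. Precursors persist and divide in the adult brain, the hypothalamus included.

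The libraries held between 7794332 and 17540230 estimated counts assigned to genes, of which Lars2 alone took 9.34% to 34.4%. Levels are given as CPM (counts scaled to a common library size by edgeR) where mice are compared, and as TPM, a share of transcripts corrected for length, where genes are compared. In the library with the fewest counts 3 counts were 0.458 CPM and in that with the most 0.148 CPM, and values at or under such levels are read as not detected at this depth. In each mouse Ddx3y, a gene of the Y chromosome, was at 0.197 CPM or lower in the females and between 102 and 117 CPM in the males, which matches the sex in the labels.

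The 34 genes took between 0.0832% and 0.296% of the counts of a library, or 8227 to 32009 counts. The share was 0.269% in female 1, 0.106% in female 2, 0.0832% in female 3 and 0.0864% in female 4. It was 0.119% in male 1, 0.296% in male 2, 0.273% in male 3 and 0.258% in male 4. Female 1 and males 2, 3 and 4 were therefore high and the other 4 mice low, and the sexes overlapped. In bulk RNA, fewer cells of a type and less RNA per cell cannot be told apart.

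In TPM averaged over 8 mice, the most abundant genes of the list were Mbp, a protein of compact myelin, at 300 ± 174 TPM (SD, n = 8), Ptgds, a prostaglandin D synthase, at 249 ± 133 TPM, and Trf, the iron carrier transferrin, at 203 ± 114 TPM. The value of Mbp sums transcripts of an upstream and a downstream start, described below. Those of the downstream start, from which the classic myelin basic proteins come, averaged 243 TPM and those of the upstream start 56.2 TPM. Cnp, an enzyme of the inner myelin layer, was the next gene after Trf, at 136 ± 73.9 TPM. The least abundant were Bmp4, a secreted growth factor, at 1.94 ± 1.52 TPM and Tcf7l1, a Wnt pathway transcription factor, at 2.94 ± 0.636 TPM. For scale, Sst itself averaged 1188 TPM, the synaptic gene Snap25 666 TPM, the microglial gene C1qa 394 TPM and the astrocyte gene Slc1a3 117 TPM. The order of Mbp, Ptgds and Trf in their means did not hold in every mouse. In female 4 Trf, at 113 TPM, was above Mbp, at 101 TPM. In male 2 Trf, at 342 TPM, was above Ptgds, at 303 TPM, and in male 3 Ptgds, at 401 TPM, was above Mbp, at 365 TPM. In 31 of the 34 genes every mouse had 10 or more counts.

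The RNA levels of genes of the myelin membrane behaved alike over the mice. Mog, an outer surface protein of the sheath (ENSMUSG00000076439.12, chr17:37010743-37023398, minus strand, mm10), was at 27.2, 14.97, 7.35 and 6.84 CPM in females 1 to 4 and at 15.6, 35.01, 32.8 and 30.5 CPM in males 1 to 4. Female 1 was close to males 2, 3 and 4, and male 1 was close to female 2. The females averaged 14.1 ± 9.50 CPM against 28.5 ± 8.80 CPM for the males (SD, n = 4). The fitted difference, female minus male on the log2 scale, was -1.03 ± 0.44 (SE), with an adjusted p of 0.234 in the edgeR quasi-likelihood test over 15194 genes. Mog was thus not called.

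Mag, the adhesion protein that faces the axon (ENSMUSG00000036634.15, chr7:30899176-30914873, minus strand), had the same 4 highest mice in another order and a wider range. It was at 151, 50.7, 26.2 and 20.9 CPM in females 1 to 4. In males 1 to 4 it was at 47.3, 136, 129 and 112 CPM. The highest mouse and the lowest were thus both female, 7.22-fold apart, and the difference between the sexes was -0.78 ± 0.59 on the log2 scale with an adjusted p of 0.484 (edgeR).

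Cnp was at 290, 114, 64.3 and 56.0 CPM in females 1 to 4 and at 113, 273, 241 and 244 CPM in males 1 to 4. Opalin, a transmembrane protein of oligodendrocyte processes, was at 17.5, 4.73, 2.91 and 1.89 CPM in the females and at 5.05, 13.7, 10.99 and 9.57 CPM in the males. Each of the 12 myelin membrane and structure genes (Mbp, Mog, Mobp, Mag, Cnp, Cldn11, Mal, Opalin, Ermn, Tspan2, Gjc3 and Anln) had female 1 and males 2, 3 and 4 as its 4 highest mice. Female 4 was the lowest for 11 of the 12, and female 1 the highest for 6. Summed over the 12 genes, the level ran from 328 CPM in female 4 to 1493 CPM in female 1. Highest over lowest ranged from 3.45-fold for Mbp to 9.28-fold for Opalin.

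The lipid, metabolic and secreted genes followed the same mice with 2 exceptions. Trf was at 275, 112, 50.1 and 76.3 CPM in females 1 to 4 and at 91.8, 345, 234 and 265 CPM in males 1 to 4. Apod, a lipid carrier, was at 81.3, 26.4, 9.28 and 12.2 CPM in the females and at 32.2, 129, 68.4 and 75.7 CPM in the males. Apod had the widest range of this group, 13.9-fold, and the lowest fitted difference of the group, -1.25 ± 0.67 on the log2 scale with an adjusted p of 0.315 (edgeR).

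Gsn, the actin severing protein gelsolin, departed from the others in that female 1 and male 4 were intermediate. It was at 45.3, 18.3, 17.5 and 16.9 CPM in females 1 to 4 and at 35.5, 68.1, 68.4 and 33.9 CPM in males 1 to 4. The difference was -1.07 ± 0.38 with an adjusted p of 0.177 (edgeR). Klk6, a secreted protease of mature oligodendrocytes, was the other exception: it had 42 counts in female 1, 67 counts in male 2 and no more than 5 in any other mouse, and it did not pass the filter on low counts, so that 33 members were tested. The remaining genes of the group, Ugt8a and Fa2h, which make galactolipids, Aspa, which frees acetate for lipid synthesis, Car2, a carbonic anhydrase, Enpp2, the enzyme autotaxin, and Ptgds, had female 1 and males 2, 3 and 4 as their 4 highest mice.

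**Figure D1:**
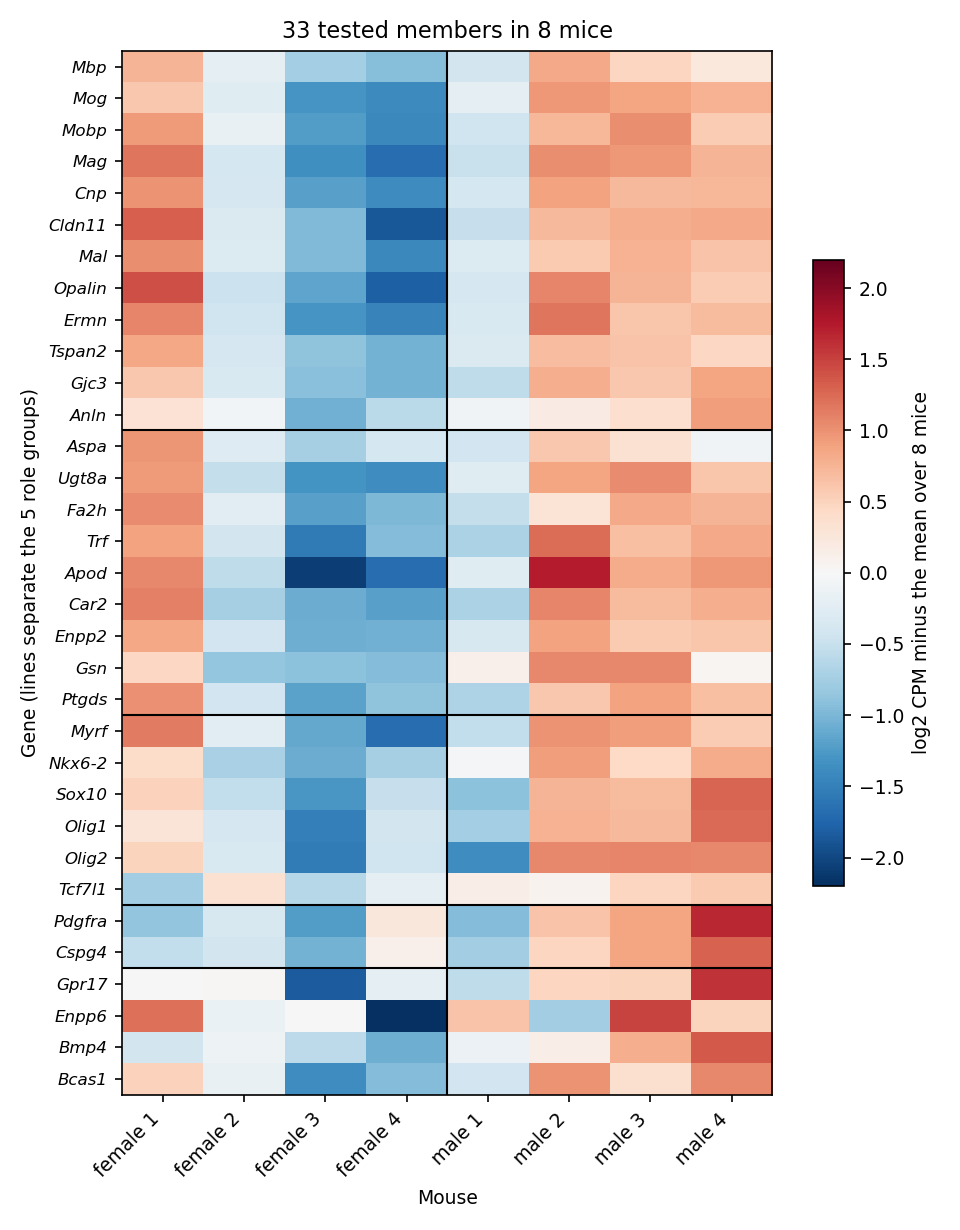
Level of 33 tested oligodendrocyte lineage genes (rows, in 5 role groups from myelin membrane at the top to committed and newly formed cells at the bottom) in the 4 female and 4 male mice (columns), as log2 CPM minus the mean of that gene over the 8 mice. Female 1 and males 2, 3 and 4 are high in the myelin and lipid rows, while Pdgfra, Cspg4 and Gpr17 are highest in male 4 and near or below their mean in female 1.

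Of the 6 transcription factors 5 had the same 4 highest mice as the myelin genes, and Tcf7l1 did not. Myrf, which switches on the myelin genes, was at 103, 39.7, 21.3 and 14.6 CPM in females 1 to 4 and at 31.9, 92.0, 88.0 and 68.6 CPM in males 1 to 4, with female 1 the highest. Olig1, present from precursor to mature cell, was at 60.4, 38.3, 17.5 and 37.3 CPM in the females and at 29.5, 84.5, 81.4 and 118 CPM in the males. For Olig1, Sox10 and Tcf7l1 male 4 was the highest mouse, as it was for Gjc3 and Anln among the myelin genes.

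Olig2, the partner of Olig1, was at 19.9, 11.3, 4.88 and 10.4 CPM in females 1 to 4 and at 5.54, 29.7, 29.8 and 29.6 CPM in males 1 to 4. Male 1 was alone among the males and lay inside the range of the females. Nkx6-2, a homeobox factor of myelinating cells, had the lowest adjusted p of the list, 0.174 (edgeR), with 7.94 ± 4.08 CPM for the females against 15.8 ± 4.42 CPM for the males (SD, n = 4). Male 1, at 10.3 CPM, was below female 1, at 14.0 CPM, so that its sexes overlapped too. Tcf7l1 rested on few counts, 16 to 47 in a mouse, at 1.78 to 3.82 CPM in females and 3.21 to 4.53 CPM in males.

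Pdgfra and Cspg4, the defining genes of the precursor, did not follow the myelin genes. Pdgfra (ENSMUSG00000029231.15, chr5:75152292-75198215, plus strand) was at 37.5, 53.8, 29.1 and 81.8 CPM in females 1 to 4 and at 35.2, 106, 125 and 216 CPM in males 1 to 4. Female 1, the highest mouse for Mag, was thus among the 3 lowest for Pdgfra, and female 4, the lowest for Mag, was the highest female. Cspg4 (ENSMUSG00000032911.6, chr9:56865033-56899870, plus strand) gave the same order of mice, at 18.6, 20.5, 13.1 and 29.2 CPM in the females and 16.0, 37.8, 49.3 and 66.6 CPM in the males.

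The fitted difference was the largest of the list for Pdgfra, -1.26 ± 0.49 on the log2 scale (SE) with an adjusted p of 0.208, and that of Cspg4 was -1.06 ± 0.39 with an adjusted p of 0.194 (edgeR). The mean of Pdgfra was 50.5 ± 23.2 CPM over females against 121 ± 74.4 CPM over males (SD, n = 4). Male 1 lay below 3 of the 4 females for Pdgfra, so that the sexes overlapped. Neither gene was called.

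The ratio of 2 genes within a library does not depend on its scaling. The ratio of Mag to Pdgfra in CPM was 4.02, 0.943, 0.898 and 0.255 for females 1 to 4, in that order. For males 1 to 4 it was 1.34, 1.27, 1.03 and 0.520. Female 1 and female 4 were the extremes, 15.7-fold apart, and the 4 males lay between them. For 2 pairs of genes of 1 stage the ratio was far steadier. Mag to Cnp ranged over 1.43-fold, from 0.373 in female 4 to 0.534 in male 3. Pdgfra to Cspg4 ranged over 1.61-fold, from 2.01 in female 1 to 3.24 in male 4. Not every such pair was steady: Gpr17 and Enpp6 were at 15.1 and 4.00 CPM in female 3. In female 4 they were at 47.1 and 0.540 CPM, the latter from 6 counts. These ratios were chosen after the values were seen and are given as a description. Mog to Pdgfra and Cnp to Pdgfra had the same extremes as Mag to Pdgfra. Mbp to Pdgfra was lowest in male 4, at 1.11, with female 4 next at 1.29 and female 1 highest at 9.14. Mbp here sums all its transcripts. Those of its upstream start, described below, held 79.2% of its counts in female 4 and 38.2% in male 4.

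**Figure D2:**
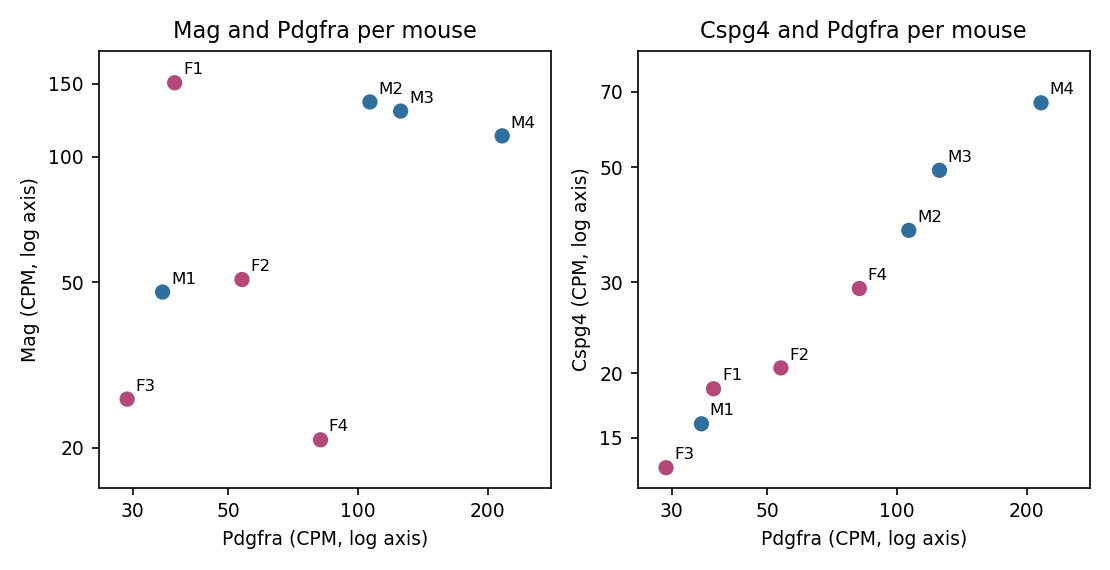
Mag (left) and Cspg4 (right) against Pdgfra in each mouse (F1 to F4 females, M1 to M4 males), in CPM on log axes. Cspg4 keeps the order of Pdgfra in all 8 mice, while Mag is highest in female 1, where Pdgfra is at 37.5 CPM, and lowest in female 4, where Pdgfra is at 81.8 CPM.

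The sequence just before the start of 3 myelin genes that shared their mice and of Pdgfra, which did not, is shown so that these promoters can be compared. The letters are from RefSeq (GRCm38.p6), 5′ to 3′ on the strand of the gene, and end where the table or the annotation has transcript sequence begin. Capitals mark ACAAAG or its reverse complement CTTTGT, a core sequence bound by SOX factors such as Sox10, found by letters alone on both strands.
Mobp, chr9:120149492-120149706, plus strand: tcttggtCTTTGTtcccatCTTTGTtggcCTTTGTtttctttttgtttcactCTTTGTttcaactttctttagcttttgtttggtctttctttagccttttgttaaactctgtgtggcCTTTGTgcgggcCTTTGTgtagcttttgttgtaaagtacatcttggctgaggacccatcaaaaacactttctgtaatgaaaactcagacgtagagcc
Opalin, chr19:41077114-41077363, minus strand: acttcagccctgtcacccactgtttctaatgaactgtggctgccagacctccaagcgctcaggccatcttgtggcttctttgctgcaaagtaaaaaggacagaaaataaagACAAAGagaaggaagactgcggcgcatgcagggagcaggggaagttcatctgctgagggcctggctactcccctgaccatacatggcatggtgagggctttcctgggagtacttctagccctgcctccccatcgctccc
Mog, chr17:37023399-37023648, minus strand: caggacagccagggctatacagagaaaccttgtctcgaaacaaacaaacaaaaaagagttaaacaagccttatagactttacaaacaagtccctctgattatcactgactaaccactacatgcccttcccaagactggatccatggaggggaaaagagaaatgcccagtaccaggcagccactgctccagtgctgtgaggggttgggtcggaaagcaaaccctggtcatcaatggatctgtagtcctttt
Pdgfra, chr5:75152001-75152250, plus strand: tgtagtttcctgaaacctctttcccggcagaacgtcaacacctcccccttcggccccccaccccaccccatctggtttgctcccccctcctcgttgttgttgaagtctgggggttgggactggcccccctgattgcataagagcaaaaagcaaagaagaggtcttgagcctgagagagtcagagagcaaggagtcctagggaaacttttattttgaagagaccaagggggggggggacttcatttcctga
The Mobp window held 6 matches, that of Opalin 1, and those of Mog and Pdgfra none. No other window of a member held more than 1. Of the other myelin membrane genes with a window, Cnp, Mag and Tspan2 had a match and Cldn11, Mal, Gjc3, Anln and Ermn had none. Klk6 and Tcf7l1, whose 4 highest mice were others, had a match, and Gsn, Cspg4, Enpp6 and Bmp4, also with others, had none. Promoters in the table were matched for 24 of the 34 members, in 30 windows of 250 bases before a start. ACAAAG was in 9 of these 30 windows, 2 of which are overlapping windows of Mag that hold 1 site, so that 8 of the 24 members had it, and in 16.5% of all 32851 windows of the same length. ACAATG, a related SOX core, was in 13.3% against 10.7%, and the E-box CAGCTG in 13.3% against 13.0%. Of the 30 windows 18 held no annotated exon base, and the others were in part transcribed. A match is no proof of binding, and sequence farther from the start was not searched.

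The genes of the committed and newly formed stages did not all follow the same mice. Gpr17, a receptor of committed precursors, was at 53.4, 54.99, 15.1 and 47.1 CPM in females 1 to 4 and at 36.6, 74.6, 75.7 and 162 CPM in males 1 to 4, with male 4 the highest as for Pdgfra. Enpp6, a choline phosphodiesterase of newly formed oligodendrocytes, was at 9.32, 3.67, 4.00 and 0.540 CPM in the females and at 6.27, 2.38, 11.3 and 5.67 CPM in the males. Its range of 20.9-fold was the widest of the list, but the lowest mouse, female 4, held only 6 counts.

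Bmp4 was at 0.630 to 1.22 CPM over the females and at 1.22 to 3.40 CPM in males, with 7 to 27 counts in a mouse, so that its values rest on few reads. Bcas1, a marker of cells that are starting to myelinate, had female 1 and males 2, 3 and 4 as its 4 highest mice, at 27.1, 37.9, 24.5 and 39.8 CPM. In all, 26 of the 34 genes found had these 4 mice as their highest, a count made after the values were seen, against 9.39% of the 15194 genes tested. The 8 that did not were Gsn, Klk6, Tcf7l1, Pdgfra, Cspg4, Gpr17, Enpp6 and Bmp4.

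To ask whether the sexes differ, the fit was made over all 15194 genes that passed the filter. It called 24 genes at an adjusted p under 0.05, or 0.158%, and none of the 33 tested members was among them (edgeR; 7 members had an unadjusted p under 0.05, beside 3121 of all genes). The adjusted p of the members ran from 0.174 to 0.897. Every one of the 33 was fitted lower in females, with log2 fold changes from -1.26 for Pdgfra to -0.12 for Aspa and a median of -0.78. Over all genes tested the median was -0.0043 and 50.6% were fitted lower in females. As most members share their high and low mice, their common sign is not 33 separate observations.

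None of the 33 tested members had every female below or above every male in CPM, whereas 1582 of all genes tested, or 10.4%, had sexes that did not overlap. For Bmp4 the overlap was a near tie, with female 2 at 1.2219 CPM (8 counts) and male 1 at 1.2214 CPM (15 counts). The median differences by role were -0.69 for the 12 myelin membrane genes, -0.73 for the 9 tested lipid, metabolic and secreted genes, -0.98 for the 6 transcription factors, -1.16 for the 2 precursor genes and -0.99 for the 4 committed and newly formed genes. None of these groups was tested against another.

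**Figure D3:**
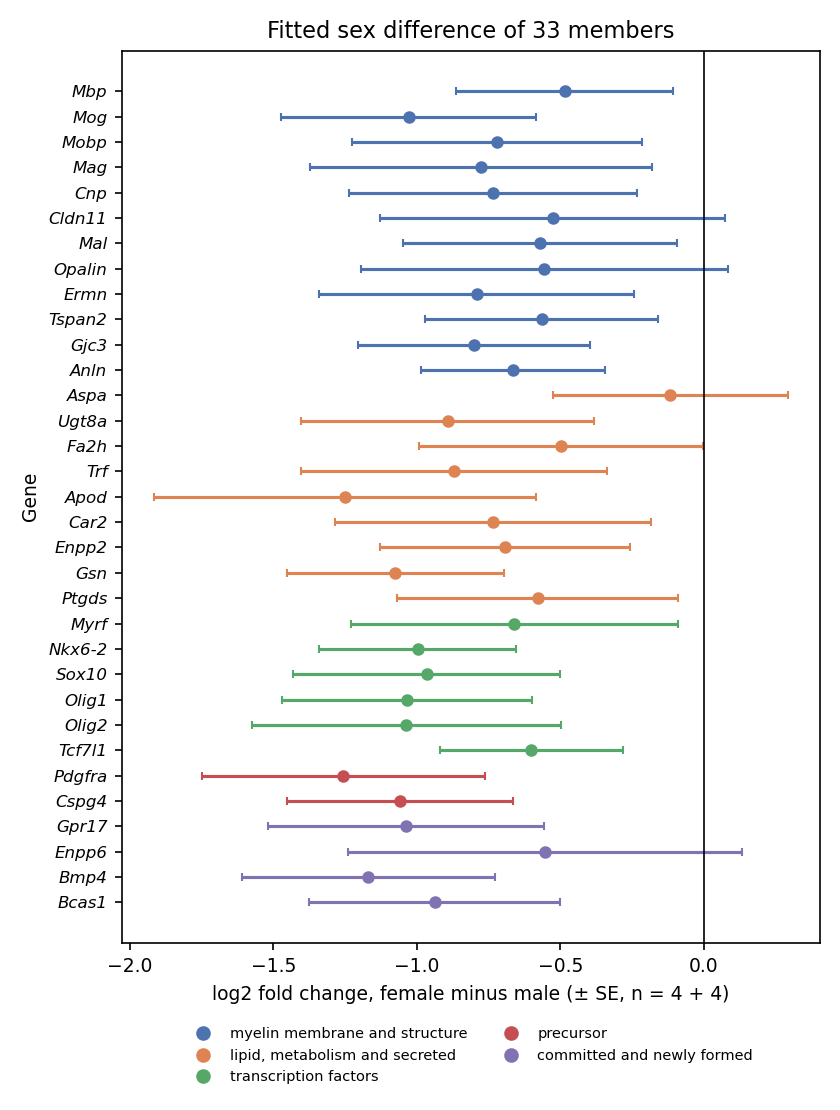
Fitted log2 fold change, female minus male, of each of 33 tested members, with its standard error (4 mice per sex), coloured by role group. All points are left of 0, between -1.26 and -0.12, and none passed the threshold after adjustment over 15194 genes.

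These counts depended on single mice and on the test used. Without female 1, the female with the highest myelin genes, 415 of 15544 genes were called (2.67%), and 4 members were among them. These were Ugt8a at -1.68 ± 0.34, Gsn at -1.55 ± 0.28, Nkx6-2 at -1.42 ± 0.26 and Enpp2 at -1.32 ± 0.28 on the log2 scale (SE), with adjusted p from 0.0378 to 0.0485 in edgeR. Without male 1, the male with the lowest share of member counts, 411 of 15516 genes were called (2.65%), of which Cspg4 was the only member, at -1.33 ± 0.27 with an adjusted p of 0.0484. DESeq2 on all 8 mice called 1014 of 13779 genes (7.36%), with Gsn (adjusted p 0.0290) and Cspg4 (adjusted p 0.0415) the only members among the 32 it could adjust.

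The files give transcripts, and Mbp (ENSMUSG00000041607.17, plus strand of chromosome 18) divided into 2 parts that varied differently. The gene has an upstream start, at 82475146 in the annotation, from which the longer Golli transcripts are read, and a downstream start near 82554513, from which the classic myelin basic proteins come. Golli transcripts are known from neurons and immune cells as well as from the oligodendrocyte lineage. The split by start was made after the values were seen.

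Transcripts of the 4 models at the upstream start summed to 122, 122, 100 and 83.9 CPM in females 1 to 4 and to 111, 98.2, 111 and 91.3 CPM in males 1 to 4. The highest and the lowest mouse were only 1.45-fold apart. Those of the 12 models that begin at the downstream start or past it summed to 221, 53.4, 20.9 and 22.1 CPM in the females and to 43.8, 267, 172 and 148 CPM in the males. One of the 12, Mbp-214, begins past that start, at 82563262, and held 29 counts over all mice. The sums span a 12.7-fold range, wider than for any of the other 11 myelin membrane genes, where all transcripts of Mbp together gave 3.45-fold.

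The share of Mbp counts from the upstream start was therefore 26.9% in male 2 and 82.8% in female 3. Measured in TPM, which sets aside the greater length of the upstream transcripts, it was 8.52% in male 2 and 42.6% in female 4. With the starts as separate features, the upstream one had a log2 fold change of 0.056 ± 0.13 (SE), adjusted p 0.838, and the downstream one -0.996 ± 0.78, adjusted p 0.493 (edgeR). Neither was called.

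How well reads can be divided between these transcripts differs. Mbp-205, which carries 5332 of the upstream counts, shares 5.31% of its stretches of 31 bases with any downstream model, and Mbp-208 shares none. These 2 transcripts alone were at 61.2, 55.4, 63.3 and 58.0 CPM in females 1 to 4 and at 62.0, 62.0, 67.8 and 47.4 CPM in males 1 to 4, so that the highest mouse was 1.43-fold above the lowest. Mbp-201, with 3832 counts, shares 77.8% of its stretches with downstream models, and its estimates, from 25.9 to 65.9 CPM, rest on how kallisto divided those reads.

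**Figure D4:**
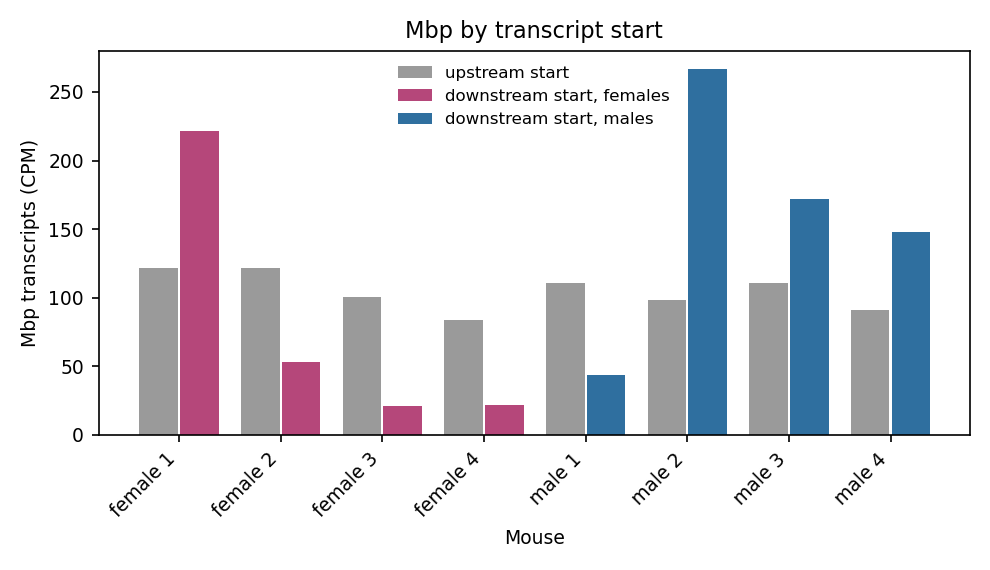
Summed CPM of Mbp transcripts that begin at the upstream start (grey, 4 transcript models) and at the downstream start or past it (coloured by sex, 12 models) in each mouse. The grey bars lie between 83.9 and 122 CPM, while the coloured bars run from 20.9 CPM in female 3 to 267 CPM in male 2.

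In 23 of the 34 genes more than 90% of the counts were on protein coding transcripts. The clearest exception was Apod, where 75.1% of the counts were on retained intron models, mostly Apod-201, which alone held 69.96% to 84.4% of the counts of a mouse. Nkx6-2 had 38.4% on a model marked for nonsense-mediated decay, Mobp 32.1%, and Ptgds 40.3% and Cnp 29.1% on processed transcripts without a coding frame. Libraries from total RNA also hold RNA that is not fully spliced, and the share of it here was not measured.

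Estimates of single isoforms were unstable where models are nearly alike. Mag-203 was below 1 count in 4 mice and held 425, 604 and 486 counts in female 1, male 2 and male 3, whereas Mag-201 held 303 counts in male 4. Pdgfra-201 had 0.0% to 63.6% of the Pdgfra counts of a mouse. Isoform levels of Mag and Pdgfra are therefore not compared, and their gene sums are.

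Trf shares 63.5% of its exon bases with Gm20425 on the same strand, a gene model that took 6.02 to 30.8 CPM, so that reads could be divided between them in another way and the level of Trf is uncertain. The exons of Nkx6-2 overlap Inpp5a on the opposite strand over 12.9% of their bases, those of Olig1 an unnamed antisense gene over 7.26% and those of Ermn the gene Galnt5 over 6.52%. The library kit keeps strand, but the strand setting of the counting is not given in the sources used here. Each file holds 2 blocks of values per transcript, and between the blocks a member differed by a median of 9.36%, against a coefficient of variation over mice with a median of 58.2%.

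Of 43 further oligodendrocyte genes, 42 were tested and none was called (edgeR, 4 at an unadjusted p under 0.05). Among 25 genes of myelinating cells 24 were tested and all 24 were fitted lower in females, at a median of -0.60 on the log2 scale. Evi2a, a membrane protein gene, and Sox8, a factor close to Sox10, had their highest values in male 2 at 62.3 CPM and in male 4 at 50.4 CPM.

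The 12 further genes used for precursors differed from Pdgfra and Cspg4. Their summed level varied by 1.48-fold over the mice, from 819 to 1216 CPM, where the 2 precursor members varied by 6.69-fold, from 42.2 to 282 CPM. The 5 with the highest mean TPM were Cspg5, Ptprz1, Cacng4, Tnr and Lhfpl3, and of these Tnr, an extracellular matrix protein, was at 302, 327, 339 and 293 CPM in females 1 to 4 and at 264, 215, 313 and 329 CPM in males 1 to 4. Fyn, a kinase used as a marker of newly formed cells, lay between 96.3 and 114 CPM in all 8 mice. Fyn, Tnr, Cacng4 and Cspg5 are also made by neurons or astrocytes, so that in these cells they do not mark the oligodendrocyte lineage alone. Kif19a, named because of its values, was the 1 gene of the 43 whose sexes did not overlap, and it was not called, with an adjusted p of 0.173 (edgeR).

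Of the other cell types, the microglial genes were highest in the same mice as the myelin genes. All 9 microglial genes were tested, none was called, and their summed level was 265 to 1464 CPM in females and 596 to 2830 CPM in males. C1qa was at 280, 52.5, 25.9 and 79.5 CPM in females 1 to 4 and at 89.3, 592, 214 and 322 CPM in males 1 to 4. The highest 4 mice were those of the myelin genes. The 9 microglial genes had a median log2 fold change of -1.42, and the 9 astrocyte genes, at a summed 286 to 906 CPM in females and 683 to 1031 CPM in males, one of -0.65. Neither list held a called gene. The astrocyte sum was highest in male 4, male 2, female 2 and male 3, at 1031, 937, 906 and 736 CPM, with female 1 at 605 CPM, and so did not have the 4 highest mice of the myelin genes.

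The 11 neuron genes were each fitted higher in females, with a median of 0.32 and none called, and their sum lay between 3066 and 3730 CPM for the females and between 2414 and 3003 CPM for the males. Sst was at 292 to 526 CPM in females and 301 to 369 CPM in males. The part of these other cell types in the results on the oligodendrocyte genes was not tested.

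**Figure D5:**
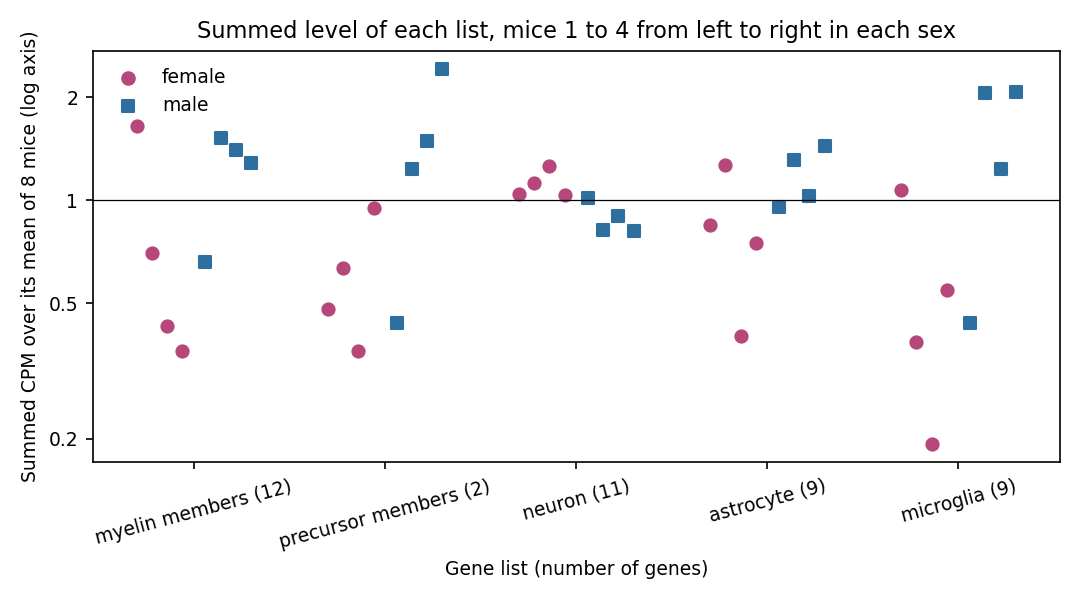
Summed CPM of the 12 myelin members, the 2 precursor members and lists of 11 neuron, 9 astrocyte and 9 microglial genes in each mouse, divided by the mean of that list over the 8 mice, on a log axis (circles females 1 to 4 and squares males 1 to 4, from left to right). The neuron list varies by 1.55-fold over the mice, the myelin members by 4.55-fold and the microglial list by 10.7-fold.

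Markers that would point to myelin from outside the brain or to other tissue were scarce. Of 5 genes used for Schwann cells, the myelinating cells of nerves, 1 passed the filter. Pmp2 was listed at 0 in every mouse. Of 7 choroid plexus and ependymal genes 2 passed, and Folr1 and Tmem212 did not reach 3 counts in any mouse. Endothelial genes summed to 27.2 to 90.8 CPM in females and 32.9 to 114 CPM in males, mural genes to 15.1 to 50.7 and 21.3 to 46.2 CPM, meningeal fibroblast genes to 8.10 to 15.3 and 16.2 to 42.1 CPM, and 3 tanycyte genes to 29.8 to 54.4 and 19.9 to 47.1 CPM.

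Genes of dividing cells were measured because precursors can divide. The 7 genes summed to between 5.76 and 13.4 CPM in the females, and in the males to between 7.06 and 103 CPM. Mki67, present in dividing cells, was at 46.9 CPM in male 4 and 20.6 CPM in male 2 and at 7.41 CPM or lower in the other 6 mice. Male 4 was also the highest mouse for Pdgfra, Cspg4 and Gpr17, but male 3, second for Pdgfra, had 1.52 CPM of Mki67. The summed microglial genes were highest in male 4 and male 2 too, at 2830 and 2810 CPM, with male 3 next at 1688 CPM. Of the 7 genes 4 were tested, and none was called. Which cells held this RNA cannot be read from bulk libraries.

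Mbp was set against 6 single genes over the 8 mice in log2 CPM, with exact permutation tests over pairings, 2-sided, adjusted over the 6. The value of Mbp here sums transcripts of both starts, of which upstream ones held 26.9% to 82.8% of its counts in a mouse. No relation was computed for either start alone. With Mog, Pearson's r was 0.95 (exact permutation p = 0.00122, adjusted p = 0.00729) and Spearman's rho 0.90 (exact permutation p = 0.00456, adjusted p = 0.0274). With C1qa, r was 0.87 (exact permutation p = 0.00866, adjusted p = 0.0260) and rho 0.81 (exact permutation p = 0.0218, adjusted p = 0.0653). Without female 4 and male 2, the mice farthest from the median of Mbp, r was 0.91 with Mog and 0.90 with C1qa, each with an adjusted exact permutation p of 0.0833, so that neither passed over 6 mice.

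The other 4 relations did not pass. With Olig1, r was 0.78 (exact permutation p = 0.0278, adjusted p = 0.0557) and rho 0.76 (exact permutation p = 0.0368, adjusted p = 0.0735). With Pdgfra, r was 0.38 (exact permutation p = 0.348, adjusted p = 0.348) and rho 0.43 (exact permutation p = 0.299, adjusted p = 0.299). With Slc1a3, r was 0.57 (exact permutation p = 0.119, adjusted p = 0.143) and rho 0.64 (exact permutation p = 0.0962, adjusted p = 0.115). With Snap25, r was -0.67 (exact permutation p = 0.0708, adjusted p = 0.106) and rho -0.69 (exact permutation p = 0.0694, adjusted p = 0.104). All 6 were made from the same libraries, and with 4 mice per sex no relation was tested within a sex.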

How the data were processed

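RNA sequencing of total RNA was made from sorted red fluorescent cells of 4 female and 4 male mice. Per the labels, a SMARTer stranded total RNA kit was used, and the submitters' processing notes name kallisto 0.46.2, DESeq2 2.11.40.6 and mm10. Cells were dissociated with papain, gated on scatter, and sorted on fluorescence. The deposited files hold estimated counts and TPM per transcript in 2 blocks per mouse, each block with its own TPM total. The counts of both blocks were summed and TPM averaged by their mean.

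Of 118489 transcripts, 116728 were matched with GENCODE M21 and summed to 35968 genes. The others held 0.429% to 0.611% of the counts and were left out. Summed counts were rounded. The edgeR 4.0.16 quasi-likelihood test (TMM factors 0.841 to 1.16, filterByExpr, sex as the only term, R 4.3.3) was adjusted by Benjamini-Hochberg over 15194 genes at 0.05, and DESeq2 1.42.0 was an alternative. The log2 fold changes are female minus male. Log2 CPM used a prior count of 2, and log2 TPM a pseudocount of 1. Promoter windows reach 250 bases before a RefSeq start. The fits were tested on simulated data. P-values measure the spread between mice, and limits of 3 counts cover counting error only.

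The members, gene lists and tests were chosen with earlier results of these data known. All members are accounted for. From the other lists, the 5 genes with the highest mean TPM, any called gene and any gene under 3 counts in every mouse could be named. The SOX and E-box motifs were chosen after the values were seen. Alternatives were another test, other scaling, other filters, each block alone, no Lars2, a replicate block and leaving out each mouse. The results of a few genes of these lists are not reported here.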

Additional observations from a re-analysis of the deposited data

Results flagged for a closer look

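Within each sex, the highest or the lowest mouse of each of the 33 tested members was checked for standing apart from the other 3 by Dixon's ratio on log2 CPM, against its critical value at the 95% level for 4 mice. Of 66 checks 5 passed, and chance gives about 1 in 20, or 3.3. In males, male 1 stood below the others for Cnp (113 CPM, ratio 0.862), Cldn11 (24.5 CPM, ratio 0.920) and Olig2 (5.54 CPM, ratio 0.997). In females, female 1 stood above the others for Gsn (45.3 CPM, ratio 0.919) and female 3 below them for Gpr17 (15.1 CPM, ratio 0.881). No cause of these was tested.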

How the results depend on the processing

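Of 525 planned repeats of the log2 fold changes of the tested members, 516 kept their sign and their side of the threshold, 7 newly passed it (Gsn and Cspg4 under 2 settings each, Ugt8a, Enpp2 and Nkx6-2, given above), and Aspa changed sign at 0.081 without female 3 and at 0.063 without male 2, in a range from -0.62 to 0.081 over the mice left out. The upstream start of Mbp alone, added after seeing the data, gave 0.056, opposite in sign to Mbp. Against 24 genes and 0 members in the fit reported, DESeq2 called 1014 genes and 2 members. Leaving out 1 mouse at a time gave 8 to 415 genes and 0 to 4 members. The counts were 10, 13 and 9 genes without females 2, 3 and 4 and 13, 8 and 13 without males 2, 3 and 4. The replicate block called 1 gene and 0 members, but in the labels same-numbered mice share only a number. Their deviations from the sex means correlated at -0.40 to 0.07, and those of differently numbered mice at -0.27 to 0.42. These values do not settle whether the numbers mark pairs. RLE factors, other filters, single blocks and removal of Lars2 gave 22 to 32 genes and 0 members. In TPM the sexes of the members overlapped as well, and all 34 ratios of female to male means moved by less than the spread within a sex. The relation of Mbp with Mog was r = 0.91 and with C1qa r = 0.90 without 2 mice, and with C1qa r = 0.83 in log2 TPM, all no longer past the threshold. The cause of these shifts was not tested. With 4 mice per sex and wide spread within each, differences of the size fitted here could not be separated from variation between mice. Values under about 10 counts, as for Klk6, Bmp4 and Enpp6, are imprecise.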
